A study of Mus musculus with 10 samples.

Results

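The mitochondrial ribosome has its own set of proteins, all encoded in the nucleus, and their messages were followed here in single mouse oocytes. The genes were chosen by name: every protein-coding gene whose mouse symbol begins with Mrpl (large subunit) or Mrps (small subunit) followed by a digit. This gave 78 genes out of 35501 with a transcript in the deposited data, 49 of the large and 29 of the small subunit, on 17 chromosomes. The oocytes were at metaphase II, where meiosis pauses until a sperm enters. There were 5 libraries of TubA-treated oocytes and 5 of control oocytes, each amplified from 1 oocyte with Smart-seq2, which copies whole messages that carry a poly(A) tail. Germinal vesicle oocytes of ICR mice, an outbred stock, aged 6 to 8 weeks were matured in culture at 37 °C in 5% CO2 for 16 h, and the TubA group received TubA at 0.1 µg/mL over 16 h. The labels give no longer name; tubastatin A, a compound that blocks HDAC6, an enzyme acting on tubulin, is usually shortened this way. The labels name no animal or culture behind a library, so p-values reflect the spread among these libraries and nothing beyond it, and that spread may be technical. No library of another stage or cell type was analysed here, so the levels describe the matured oocyte.

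The mitochondrial ribosome translates the few messages of mitochondrial DNA, all of which code for subunits of the respiratory chain and of ATP synthase. Its small subunit holds the decoding centre and its large subunit joins the amino acids and passes the growing chain through an exit tunnel toward the inner membrane. The oocyte supplies the mitochondria of the early embryo and stores RNA while transcription is silent during maturation. The level of a message here is thus the part of that store present after maturation with a poly(A) tail. Not every gene of the name is a subunit of the particle its name gives: in mammalian structures the products of Mrps30 and Mrps18a lie in the large subunit, and the product of Mrps36 belongs to the 2-oxoglutarate dehydrogenase complex.

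The values are TPM, each transcript's length-corrected share of the library scaled to a sum of 1000000, which allows levels of different genes to be compared. Of the 10 libraries, clustering gave a set with TubA replicates 1 and 2 and control replicates 1 to 3, and a second set with TubA replicates 3 to 5 and control replicates 4 and 5. This split is no label of the submitters. The 8 oocyte markers summed to 24528 to 35474 TPM in TubA libraries and 24438 to 33997 TPM in control libraries, all 8 were detected, and H1foo, the oocyte linker histone, led them. The zona pellucida genes varied far more than this sum. From control replicate 1 to TubA replicate 4, their lowest and highest library, Zp1 ran from 105 to 3088 TPM. Zp2 ran from 93.1 to 4518 TPM and Zp3 from 406 to 8123 TPM between the same libraries. The 10 cumulus and granulosa markers summed to 10.4 to 19.8 TPM in TubA libraries and 8.55 to 15.1 TPM in control libraries, most of it Cyp19a1, with Foxl2 and Amh listed at 0 in all 10 libraries. The 9 markers of theca and stroma summed to 7.87 to 18.4 TPM in TubA libraries and 7.87 to 26.0 TPM in control libraries.

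Together the 78 genes took 0.202 ± 0.0271% of the RNA by TPM in TubA libraries and 0.197 ± 0.0357% in control libraries (SD, n = 5 each), or 2023 ± 271 TPM in TubA libraries and 1972 ± 357 TPM in control libraries. Few messages made up most of this sum. The 10 most abundant members held 63.3 ± 6.33% of the sum in TubA libraries and 62.7 ± 5.39% in control libraries. Over all 10 libraries 37 members averaged at least 10 TPM, 4 averaged at least 100 TPM and 10 averaged under 1 TPM. The highest mean was 1247 times the lowest, although the proteins are, as far as is known, present in equal or nearly equal number in the assembled particle, save for the stalk protein Mrpl12.

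Mrpl24 (ENSMUSG00000019710, chr3:87919506-87923672, + strand), which codes for a protein near the exit tunnel, led the large subunit. It stood at 305, 291, 364, 303 and 238 TPM in TubA replicates 1 to 5 and at 339, 299, 236, 323 and 336 TPM in control replicates 1 to 5. Its lowest library was above the highest library of every other member, and its coefficient of variation over the 10 libraries, 13.6%, was the lowest among members tested. Mrpl3 (ENSMUSG00000032563, chr9:105053239-105079888, + strand), whose product reaches toward the peptidyl transferase centre, came second, with 201, 163, 184, 122 and 157 TPM in TubA libraries and 187, 195, 161, 121 and 165 TPM in control libraries. In both groups Mrpl3 was lowest in replicate 4. Mrpl9 (ENSMUSG00000028140, chr3:94443318-94451130, + strand), a relative of bacterial L9 on the same chromosome as Mrpl24, had 222, 171, 167, 219 and 168 TPM in TubA libraries and 94.9, 109, 77.8, 189 and 199 TPM in control libraries. Mrpl3 and Mrpl9, with overall means of 165 and 162 TPM, did not differ beyond their spread.

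Mrpl18, a protein of the central protuberance that binds the structural RNA there, averaged 110.4 ± 14.3 TPM in TubA libraries and 120.2 ± 40.3 TPM in control libraries. Mrpl10 anchors the stalk that recruits translation factors. It averaged 95.2 ± 22.2 TPM in TubA libraries and 96.7 ± 20.2 TPM in control libraries. Its partners were far lower. Mrpl12, the stalk protein that in human cells also binds the mitochondrial RNA polymerase, averaged 9.52 ± 4.81 TPM in TubA and 9.13 ± 3.14 TPM in control libraries, and Mrpl11, at the base of the stalk, 1.37 ± 1.69 TPM in TubA and 1.04 ± 0.760 TPM in control libraries. The messages of these 3 neighbours in the particle thus ranged from 95.9 to 1.21 TPM in their means over all libraries.

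Mrpl44, which carries a ribonuclease III fold, averaged 74.4 ± 15.0 TPM in TubA libraries and 80.2 ± 11.6 TPM in control libraries. Mrpl45, at the tunnel exit where the particle meets the inner membrane, averaged 8.61 ± 1.29 TPM in TubA and 9.07 ± 2.05 TPM in control libraries, and its coefficient of variation of 18.5% was low for so rare a message. Mrpl1, of the stalk at the tRNA exit side, averaged 4.26 ± 1.18 TPM in TubA and 4.05 ± 3.61 TPM in control libraries. Mrpl58, a peptidyl-tRNA hydrolase that is also built into the particle, was under the 1 TPM limit, with 0.978 ± 1.04 TPM in TubA and 0.737 ± 0.672 TPM in control libraries. The 3 lowest members of the large subunit were Mrpl13, Mrpl52 and Mrpl23. Mrpl13, which has a bacterial counterpart, averaged 0.876 ± 0.892 TPM in TubA and 0.722 ± 0.445 TPM in control libraries. Mrpl52, a protein found in mitochondrial ribosomes and not in bacterial ones, had 2.45, 0.931, 0, 0.473 and 0 TPM in TubA libraries and 0, 0.959, 0, 0.793 and 0 TPM in control libraries. A listed 0 can be a failed estimate, and Mrpl52 was listed at 0 in libraries of both groups. Mrpl23, whose product lies at the tunnel exit, had 0.0518, 0.435, 0, 0.0627 and 1.36 TPM in TubA libraries and 0, 0.795, 0.0322, 0.0427 and 0 TPM in control libraries, and it shares 10.3% of its 31-base words with a pseudogene, Mrpl23-ps1, at a mean of 2.38 TPM.

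In the small subunit Mrps14 (ENSMUSG00000058267, chr1:160195215-160202170, + strand), a protein of the head, was highest, with 69.7, 119.6, 145, 82.3 and 88.9 TPM in TubA libraries and 97.5, 89.1, 71.1, 85.8 and 133 TPM in control libraries. Mrps33 (ENSMUSG00000029918, chr6:39801804-39810988, - strand) codes for another head protein, one without a bacterial counterpart, and followed with 47.9, 66.9, 96.4, 166 and 55.7 TPM in TubA libraries and 60.8, 107, 41.2, 113 and 116 TPM in control libraries. TubA replicate 4 was the highest library of Mrps33, and the groups overlapped for both genes. Mrps9 averaged 62.1 ± 12.7 TPM in TubA libraries and 60.2 ± 13.7 TPM in control libraries, with the lowest coefficient of variation in the small subunit, 20.4%. Mrps5, at the mRNA entry, averaged 35.2 ± 2.92 TPM in TubA and 35.9 ± 11.9 TPM in control libraries, and Mrps15, of the platform, 30.1 ± 8.90 TPM in TubA and 29.8 ± 7.53 TPM in control libraries.

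The 3 relatives of bacterial S18 were all present. Mrps18a averaged 13.8 ± 6.62 TPM in TubA libraries and 11.5 ± 5.96 TPM in control libraries, Mrps18b 10.2 ± 5.78 TPM in TubA and 8.43 ± 1.27 TPM in control libraries, and Mrps18c 18.9 ± 19.4 TPM in TubA and 19.6 ± 19.3 TPM in control libraries. Mrps18c owed its spread to both replicates 4, with 12.5, 2.26, 9.39, 52.1 and 18.1 TPM in TubA libraries and 3.15, 14.3, 10.6, 52.9 and 17.1 TPM in control libraries. Mrps7, a head protein, averaged 13.2 ± 6.61 TPM in TubA libraries and 9.67 ± 4.06 TPM in control libraries. Mrps12, of the decoding centre, averaged 5.86 ± 4.92 TPM in TubA and 4.47 ± 2.60 TPM in control libraries. Mrps36 averaged 17.3 ± 7.58 TPM in TubA and 25.3 ± 15.0 TPM in control libraries.

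At the low end Mrps22, a gene in which human mutations cause a respiratory chain disease, averaged 0.516 ± 0.301 TPM in TubA libraries and 0.731 ± 0.141 TPM in control libraries. Mrps30 averaged 0.488 ± 0.358 TPM in TubA and 0.382 ± 0.251 TPM in control libraries. Mrps34 had 0.0837, 0.565, 0.0768, 0.247 and 0.251 TPM in TubA libraries and 0, 0.476, 0, 0.0781 and 1.01 TPM in control libraries. It shares 56.8% of its words with Mapk8ip3 and 35.6% with Nme3, and its level is therefore uncertain. Mrps10, another head protein, was the lowest member of all, with 0.128, 0.193, 0.0639, 0.366 and 0.191 TPM in TubA libraries and 0.109, 0.0889, 0.321, 0.410 and 0.563 TPM in control libraries. It was above 0 in all 10 libraries.

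**Figure D1:**
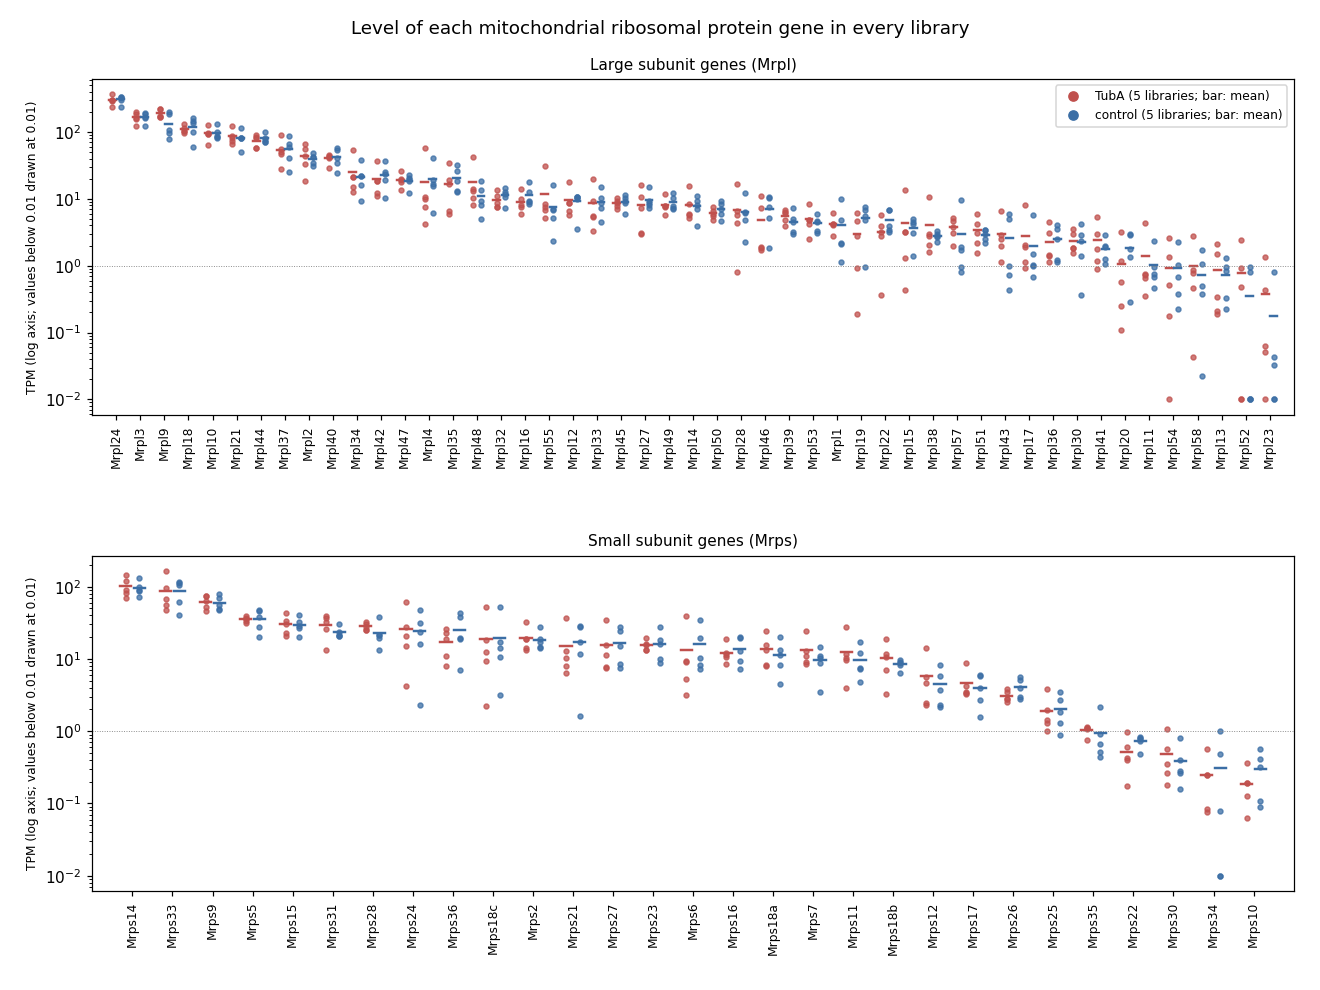
Level of each member in every library in TPM on a log axis, large subunit above and small subunit below, ordered by mean; red points are the 5 TubA libraries, blue points the 5 control libraries, bars the group means, and values below 0.01 are drawn at 0.01. The levels span from Mrpl24 near 300 TPM to members below the dotted line at 1 TPM, and the red and blue points of every gene overlap.

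The precision followed the level. Among the 21 members of at least 20 TPM the median coefficient of variation over the 10 libraries was 26.2%, against 28.4% for all 4596 genes of that level. Among the 47 members of 1 to 20 TPM it was 52.6%, against 52.2% for all 7068 such genes. The tested members ranged from 13.6% for Mrpl24 to 104% for Mrpl11. The number of reads behind a value is unknown, because TPM keeps no depth, so no counting interval can be given.

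Some members share sequence with other genes, and how the abundance program divided such reads is not stated. For 50 of the 78 members under 5% of the 31-base words occur in another gene listed above 0, and for 7 members at least 20% do. Mrps25 shares 68.9% of its words with Nr2c2 and Mrpl53 84.4% with Gm42688, so both levels are uncertain. Mrpl24 shares 23.1% with Rrnad1, which averaged 3.44 TPM. Mrpl19 shares 35.8% with Gcfc2, which at 13.8 TPM was above Mrpl19 itself. The labels do not state that strand was kept, so a member and a gene overlapping it on the other strand cannot be told apart.

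The rule sets the large against the small subunit, and the answer depended on the summary. Summed, the Mrpl genes had 1451, 1350.2, 1534, 1573 and 1236 TPM in TubA replicates 1 to 5 and 1328, 1398, 1101, 1597 and 1542 TPM in control replicates 1 to 5. The Mrps genes had 495, 491, 658, 827 and 498 TPM in TubA libraries and 447, 584, 389, 787 and 689.9 TPM in control libraries. The ratio of large to small was 2.93, 2.75, 2.33, 1.90 and 2.48 in TubA libraries and 2.97, 2.40, 2.83, 2.03 and 2.23 in control libraries. The large sum was above the small one in every library, which the larger number of Mrpl genes alone can give.

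Per gene, the large subunit averaged 29.2 ± 2.81 TPM in TubA libraries and 28.4 ± 3.99 TPM in control libraries, and the small subunit 20.5 ± 5.11 TPM in TubA and 19.97 ± 5.70 TPM in control libraries. The median gene gave the other order. It stood at 6.41 ± 1.28 TPM in TubA and 7.58 ± 2.11 TPM in control libraries for the large subunit, and at 12.4 ± 5.03 TPM in TubA and 11.8 ± 4.97 TPM in control libraries for the small one. In each of the 10 libraries the mean was higher for the large and the median higher for the small subunit. By level, 4 of 49 Mrpl genes and 0 of 29 Mrps genes averaged at least 100 TPM, 18 Mrpl and 19 Mrps genes averaged at least 10 TPM, and 5 Mrpl and 5 Mrps genes averaged under 1 TPM. Genes are not independent replicates, and no test was run between the subunits.

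The sums of TubA and control oocytes overlapped, with group means closer than 1 SD. The large sum averaged 1429 ± 138 TPM in TubA libraries and 1393 ± 196 TPM in control libraries, and the small sum 594 ± 148 TPM in TubA and 579 ± 165 TPM in control libraries. The ratio averaged 2.48 ± 0.397 in TubA libraries and 2.49 ± 0.398 in control libraries. It was lowest in replicate 4 of each group, where the small sum was highest. With Mrps30 and Mrps18a moved to the large subunit and Mrps36 left out, as structures of the particle place them, the ratio was 2.64 in TubA libraries and 2.67 in control libraries. Without both replicates 4 it was 2.62 in TubA libraries and 2.61 in control libraries.

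**Figure D2:**
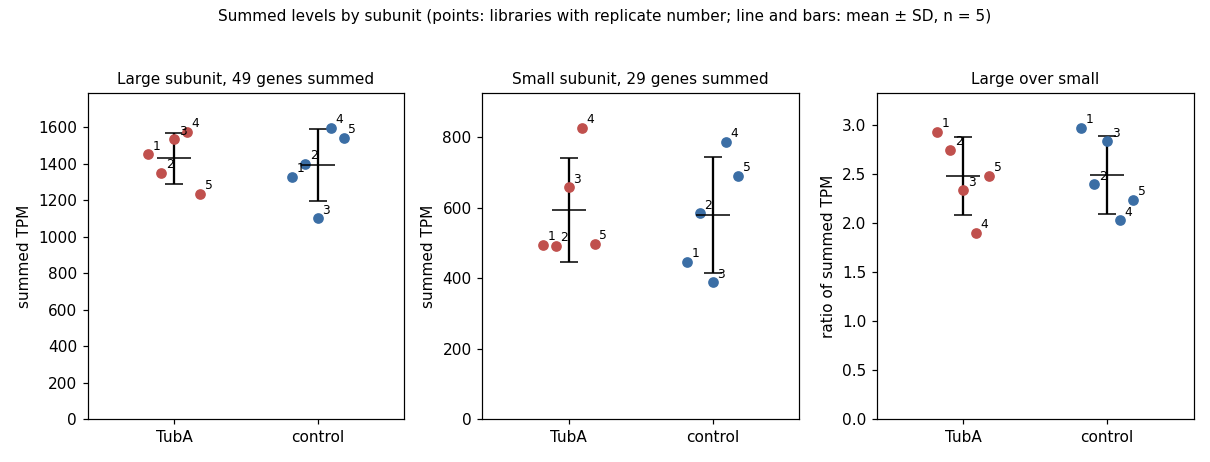
Summed TPM of the 49 Mrpl genes (left) and of the 29 Mrps genes (middle) and the ratio of the sums (right) in TubA and control libraries; points are libraries with their replicate number, and the line and bars give mean ± SD (n = 5 per group). The groups overlap in all 3 panels, and replicate 4 has the highest small sum and the lowest ratio in each group.

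A gene's level sums all its annotated transcripts, and for several of the most abundant members most of that sum was assigned to transcripts that are not annotated as protein-coding. Transcripts annotated protein-coding held 75.2 ± 1.98% of the members' summed TPM in TubA libraries and 74.3 ± 1.84% in control libraries. Of the 68 members tested, 15 (22.1%) had under 50% of their mean in such transcripts, against 1826 of the 10891 protein-coding genes tested (16.8%). Among members of at least 20 TPM it was 7 of 21 (33.3%), against 720 of the 4433 protein-coding genes of that level (16.2%). No test was run on these shares. The transcripts of a gene can share sequence, so the deposited split between them has to be an estimate, and these shares carry more uncertainty than the sums.

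Mrpl3 was the extreme. Protein-coding transcripts held 1.35% of its mean (0.609% to 1.83% by library). The leading transcript, Mrpl3-204, annotated as subject to nonsense-mediated decay, had 104 ± 15.1 TPM in TubA libraries and 108 ± 23.1 TPM in control libraries (63.8% of the gene). Mrpl3-208, a processed transcript without an annotated reading frame, had 58.7 ± 19.0 TPM in TubA and 56.5 ± 20.02 TPM in control libraries. The protein-coding Mrpl3-201 had 1.75 ± 0.759 TPM in TubA libraries and 1.23 ± 0.372 TPM in control libraries. Mrpl3-204 is 1394 bases long and Mrpl3-201 is 3972 bases long, and the coding one ends 2422 bases further downstream.

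For Mrps14, protein-coding transcripts held 12.4% (6.38% to 17.7% by library). The leading Mrps14-201, of the nonsense-mediated decay type, had 88.1 ± 26.5 TPM in TubA libraries and 83.9 ± 21.2 TPM in control libraries. The coding Mrps14-202 had 7.37 ± 4.08 TPM in TubA and 8.05 ± 4.85 TPM in control libraries, and the coding Mrps14-203 5.69 ± 1.28 TPM in TubA and 3.31 ± 1.24 TPM in control libraries. For Mrpl21, the retained-intron transcript Mrpl21-203 had 73.5 ± 20.1 TPM in TubA libraries and 71.6 ± 24.2 TPM in control libraries, and the coding Mrpl21-202 9.19 ± 2.84 TPM in TubA and 7.09 ± 2.55 TPM in control libraries. By contrast Mrpl24 was nearly all coding (99.9%), divided over Mrpl24-204 (56.3%), Mrpl24-202 (29.4%) and Mrpl24-201 (13.6%).

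The leading and the coding transcripts of these 3 genes part at the end of a shared exon, and both sides of that point are shown for each pair. The transcripts of each pair shown also differ at the 3′ end. Whether the assignment rests on the point shown cannot be told from deposited TPM. The sequences are those of the GENCODE M21 transcripts on GRCm38, + strand, 5′ to 3′. Lower case is the end of the exon that both transcripts of a gene share, and capitals are the 30 bases that follow in each. For Mrps14 the coding Mrps14-203 is shown because Mrps14-202 has another first exon; exon 2 starts at the same base in both.
Mrpl3-204: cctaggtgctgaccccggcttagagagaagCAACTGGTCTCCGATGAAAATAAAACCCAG
Mrpl3-201: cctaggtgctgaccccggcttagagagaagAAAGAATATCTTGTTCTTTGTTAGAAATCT
Mrps14-201: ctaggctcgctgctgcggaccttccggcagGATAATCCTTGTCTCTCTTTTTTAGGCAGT
Mrps14-203: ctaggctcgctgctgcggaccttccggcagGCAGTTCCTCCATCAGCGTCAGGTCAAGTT
Mrpl21-203: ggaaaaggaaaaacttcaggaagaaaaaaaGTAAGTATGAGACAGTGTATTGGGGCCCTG
Mrpl21-202: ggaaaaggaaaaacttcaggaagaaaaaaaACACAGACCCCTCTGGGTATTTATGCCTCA
The shared end lies at chr9:105053483-105053512 for Mrpl3, at chr1:160195282-160195311 for Mrps14 and at chr19:3289058-3289087 for Mrpl21. In Mrpl3 the capitals come from chr9:105054515-105054544 in Mrpl3-204 and from chr9:105054421-105054450 in Mrpl3-201, so exon 2 starts 94 bases later in Mrpl3-204. In Mrps14 they come from chr1:160196921-160196950 in Mrps14-201 and from chr1:160196946-160196975 in Mrps14-203, so exon 2 of Mrps14-201 carries 25 extra bases at its start. In Mrpl21 they come from chr19:3289088-3289117 in Mrpl21-203, which runs on into the intron after exon 6, and from chr19:3292436-3292465 in Mrpl21-202.

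Across the members, 64 had a protein-coding transcript as their most abundant one and 14 did not. In 13 of these 14 the most abundant transcript was shorter than the most abundant coding one, and in 12 it also ended first. Those 12 pairs thus differ at the 3′ end as well as in their exons. Which of these differences the reads lay on cannot be told from deposited TPM. The coding share did not separate the groups: over the summed members it was 75.8, 75.4, 73.4, 78.0 and 73.2% in TubA libraries and 72.5, 72.7, 74.6, 77.1 and 74.5% in control libraries, and these ranges overlap.

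**Figure D3:**
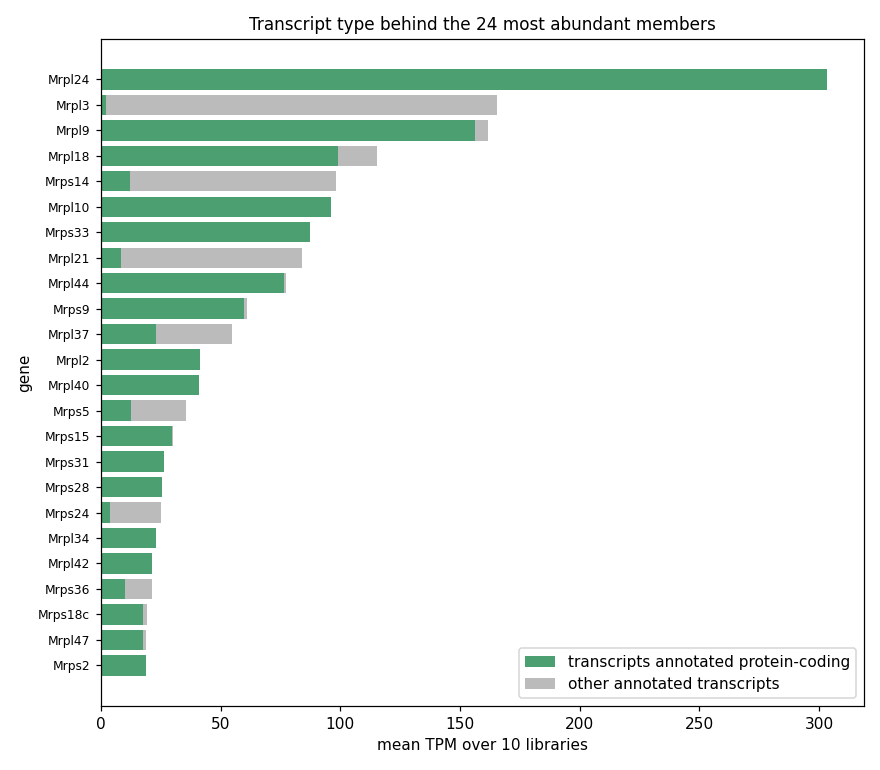
Mean TPM over the 10 libraries of the 24 most abundant members, divided into transcripts annotated protein-coding (green) and other annotated transcripts (grey). Mrpl3, Mrps14 and Mrpl21 are mostly grey, whereas Mrpl24, Mrpl10 and Mrps33 are green along almost their whole bar.

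For each gene, TubA was set against control with limma on log2(TPM + 1), for the 11664 genes averaging 1 TPM or more over the 10 libraries. Of the 78 members, 68 entered: 44 of 49 of the large and 24 of 29 of the small subunit. The 10 left out were Mrpl13, Mrpl23, Mrpl52, Mrpl54, Mrpl58, Mrps10, Mrps22, Mrps30, Mrps34 and Mrps35. The limit uses the mean over all libraries of both groups, so a member could pass through 1 high group. Differences are TubA minus control, and on this scale the change of low genes is understated.

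None of the 68 members passed a Benjamini-Hochberg adjusted p of 0.05 in limma, where 0.00857% of all genes did, and the lowest adjusted p was 0.9999. At an unadjusted p under 0.05, 1 member was higher in TubA libraries and 0 were lower, where 1.13% of all genes were higher and 1.38% lower. The 5 TubA values lay wholly above or wholly below the 5 control values in 0 members, where 0.189% of all genes had no overlap with TubA higher and 0.266% with TubA lower. The members' counts were thus near the share of all genes.

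The members' median difference was 0.0023 (log2), beside 0.0097 over all genes tested. For the large subunit it was -0.023, with 20 members above 0 and 24 below, and for the small subunit 0.040, with 15 above and 9 below. In all, 35 of 68 members were above 0, beside 51.4% of all genes tested. The differences ran from -0.76 for Mrpl19 to 0.59 for Mrpl9.

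How large a change the data leave room for depended on the gene. The 95% interval of the difference lay wholly inside a 2-fold change in either direction for 39 of 68 members (57.4%), beside 57% of all genes tested. It did so for 25 of 44 members of the large and 14 of 24 of the small subunit, for 16 of 21 members of at least 20 TPM, and for 23 of 47 members of 1 to 20 TPM. For Mrpl24 the difference was -0.031 with an interval of -0.39 to 0.33, and for Mrpl3 it was -0.0065 with an interval of -0.42 to 0.40. For Mrps18c it was -0.13 with an interval of -1.73 to 1.48, so a change of more than 2-fold in either direction lies within the error of that gene.

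Mrpl9 was the member with an unadjusted p under 0.05 in limma (adjusted p = 0.9999). It averaged 189 ± 28.3 TPM in TubA libraries and 134 ± 55.8 TPM in control libraries, a difference of 0.59 (SE 0.26). The 2 highest control libraries, replicates 4 and 5, lay within the TubA range, and control replicates 1 to 3 lay below every TubA library. Within the library set of TubA 1 and 2 and control 1 to 3 the difference was 1.06, and within that of TubA 3 to 5 and control 4 and 5 it was -0.079. The unadjusted p was above 0.05 without any 1 of the TubA libraries or of control replicates 1 to 3.

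The other large differences belonged to rare or scattered messages, and none had an unadjusted p under 0.05 with all libraries and no further term. Mrpl19, Mrpl22 and Mrpl20 have bacterial counterparts, whereas Mrpl46, Mrpl57, Mrpl48 and Mrpl55 are known from mitochondrial ribosomes alone. Below 0, Mrpl19 averaged 2.93 ± 2.50 TPM in TubA libraries and 5.11 ± 2.57 TPM in control libraries (-0.76), Mrpl46 4.77 ± 4.26 TPM in TubA and 7.11 ± 3.68 TPM in control libraries (-0.63), Mrpl22 3.21 ± 1.92 TPM in TubA and 4.83 ± 1.83 TPM in control libraries (-0.59), and Mrpl20 1.06 ± 1.26 TPM in TubA and 1.86 ± 1.13 TPM in control libraries (-0.54). Above 0, after Mrpl9, Mrpl57 averaged 3.73 ± 1.27 TPM in TubA libraries and 2.99 ± 3.71 TPM in control libraries (0.56), Mrpl48 17.6 ± 14.1 TPM in TubA and 10.9 ± 5.23 TPM in control libraries (0.51), and Mrpl55 11.7 ± 10.8 TPM in TubA and 7.53 ± 5.26 TPM in control libraries (0.49). In small-subunit genes the differences ran from -0.49 for Mrps6 to 0.42 for Mrps7. They were 0.38 for Mrps28, 0.27 for Mrps18a, 0.21 for Mrps12 and -0.40 for Mrps36.

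Single libraries moved several of these values by more than 1.5 times. Without TubA replicate 4 the difference was 0.14 for Mrpl48, 0.086 for Mrpl55, -0.22 for Mrpl22, -0.97 for Mrpl46 and -0.84 for Mrpl20. Without control replicate 1 it was 0.29 for Mrpl48, 0.20 for Mrpl55 and -0.96 for Mrpl46, and without control replicate 4 it was 0.80 for Mrpl55 and 0.996 for Mrpl57. Without control replicate 3 Mrpl57 had 0.36. Mrpl19 had -0.40 without TubA replicate 1 and -0.24 when the whole level of Gcfc2, with which it shares words, was added. Gcfc2 averaged 13.8 TPM and Mrpl19 4.02 TPM, so that value mostly describes Gcfc2. How the shared reads were divided cannot be told from it. The unadjusted p of Mrpl19 was under 0.05 with the replicate block, with the library set as a term and without control replicate 1, that of Mrps36 with the library set as a term, that of Mrpl20 and Mrpl46 with library weights, and that of Mrpl57 and Mrps28 without control replicate 4. None of these passed the adjusted threshold.

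**Figure D4:**
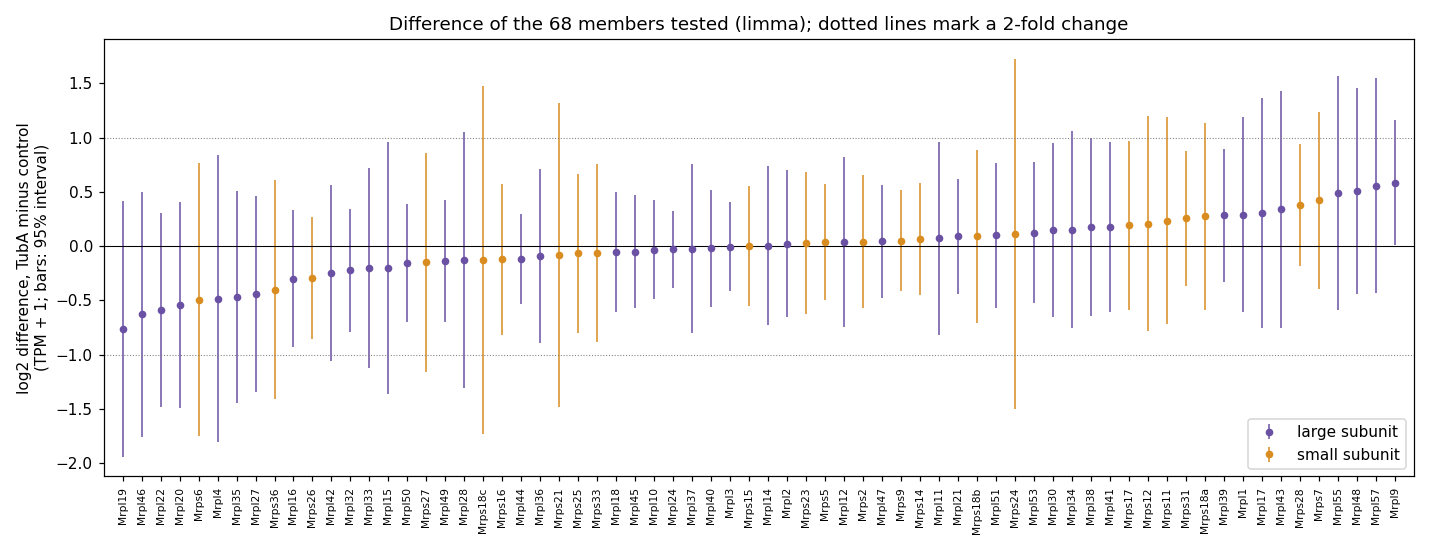
Difference of the 68 members tested on the log2(TPM + 1) scale, TubA minus control, with 95% intervals from limma; purple points are large-subunit and orange points small-subunit genes, and dotted lines mark a 2-fold change. The points run from -0.76 (Mrpl19) to 0.59 (Mrpl9), and the interval of every gene but Mrpl9 includes 0.

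In single libraries many members were high at once, and rare and abundant members did not do so alike. Each gene's log2 deviation from its own mean was taken, and the median over the 68 members was -0.010, -0.12, 0.0050, 0.62 and -0.13 in TubA replicates 1 to 5 and -0.36, 0.058, -0.18, 0.47 and 0.20 in control replicates 1 to 5. Replicate 4 was the highest library of both groups. TubA replicate 4 was the highest of all 10 libraries for 30 of 68 members (44.1%), beside 21.1% of all genes tested, and control replicate 4 for 13 members (19.1%), beside 6.05% of all genes. Control replicate 3, the highest library of 21.5% of all genes, was the highest for 2 members.

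Both subunits took part: TubA replicate 4 was highest for 19 of 44 members of the large and 11 of 24 of the small subunit. It was highest for 26 of 47 members of 1 to 20 TPM (55.3%) and for 4 of 21 members of at least 20 TPM (19.0%), beside the 21.1% of all genes. The share among all genes of each level was not computed, and this contrast was not tested. For members of 1 to 20 TPM the median deviation was -0.018, -0.22, -0.22, 0.94 and -0.18 in TubA libraries and -0.51, 0.068, -0.020, 0.50 and 0.11 in control libraries. For members of at least 20 TPM it was 0.037, 0.019, 0.26, 0.033 and -0.10 in TubA libraries and -0.11, 0.024, -0.35, 0.38 and 0.25 in control libraries. In TubA replicate 4 the rare members were thus high and the abundant ones near their mean, whereas in control replicate 4 both were high. An example is Mrpl4, a relative of bacterial L4, with 7.65, 4.17, 9.94, 57.9 and 10.5 TPM in TubA libraries and 6.17, 15.4, 19.1, 41.4 and 16.7 TPM in control libraries. Both replicates 4 stood above all others. Mrpl3 went the other way, as given above, and so did Mrpl10 in the TubA group, with 97.1, 127, 91.7, 64.9 and 94.8 TPM in TubA libraries and 130.3, 80.2, 100.4, 84.7 and 88.0 TPM in control libraries.

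Other nuclear gene families showed the same libraries high. For the 76 cytosolic ribosomal protein genes tested the median deviation was -0.080, -0.47, 0.0070, 0.71 and -0.20 in TubA libraries and -0.56, 0.075, -0.20, 0.40 and 0.33 in control libraries. TubA replicate 4 was the highest for 31 of them (40.8%), beside 21.1% of all genes. For the 74 nuclear genes of the respiratory chain and ATP synthase the median deviation was -0.12, -0.66, -0.037, 0.97 and -0.15 in TubA libraries and -0.81, 0.28, -0.26, 0.78 and 0.36 in control libraries. TubA replicate 4 was the highest for 33 of these (44.6%). The 13 messages that the mitochondrial ribosome itself translates stood apart from these families in several libraries, among them TubA replicate 4 and control replicate 1. Their median deviation was -0.80, -0.38, 0.53, -0.49 and 0.11 in TubA libraries and 0.55, 0.20, -0.34, 0.53 and 0.41 in control libraries, and TubA replicate 4 was the highest for 0 of 13. These deviations describe single libraries, and no test was run between the families. Between the groups, the 13 messages had a median difference of -0.42, with 12 below 0 and 1 above. In limma 0 of the 13 passed an adjusted p of 0.05 (lowest 0.64). At an unadjusted p under 0.05, 6 were lower in TubA libraries and 0 higher, where 1.38% of all genes were lower. For 4 of the 13, mt-Nd3, mt-Nd4, mt-Nd5 and mt-Nd4l, every TubA value lay below every control value, where 0.266% of all genes had this.

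Values of other kinds were looked at beside it. The summed TPM of 8 markers of blood, immune and endothelial cells was 43.7, 44.1, 39.7, 79.4 and 47.0 in TubA libraries and 27.2, 35.5, 75.9, 67.7 and 61.5 in control libraries, highest in TubA replicate 4. C1qb, a complement gene of macrophages, had 12.2, 7.68, 16.99, 54.3 and 8.95 TPM in TubA libraries and 2.91, 12.6, 19.7, 42.5 and 13.96 TPM in control libraries, and was highest in both replicates 4, as the rare members were. Pecam1, of endothelium, had 28.4, 28.0, 17.5, 22.7 and 32.0 TPM in TubA libraries and 21.4, 20.3, 45.1, 20.7 and 24.3 TPM in control libraries, and was highest in control replicate 3. C1qa and Hba-a1 were listed at 0 in both replicates 4, and Cd68 was highest in TubA replicate 3. Ptprc, of leukocytes, was at most 0.174 TPM and Cdh5, of endothelium, at most 0.0694 TPM in any library. Abundant oocyte markers were also high in these libraries: Zp1, Zp2, Zp3 and Ooep were each highest in replicate 4 of both groups. Zp3 had 8123 TPM in TubA replicate 4 and 5363 TPM in control replicate 4. Gdf9, Bmp15, H1foo and Mos were highest in other libraries. The number of genes of at least 1 TPM was 11471, 10714, 10838, 11698 and 11115 in TubA libraries and 10521, 11440.0, 11677, 11404 and 11392 in control libraries. The part of any of these measures in the joint variation was not tested.

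**Figure D5:**
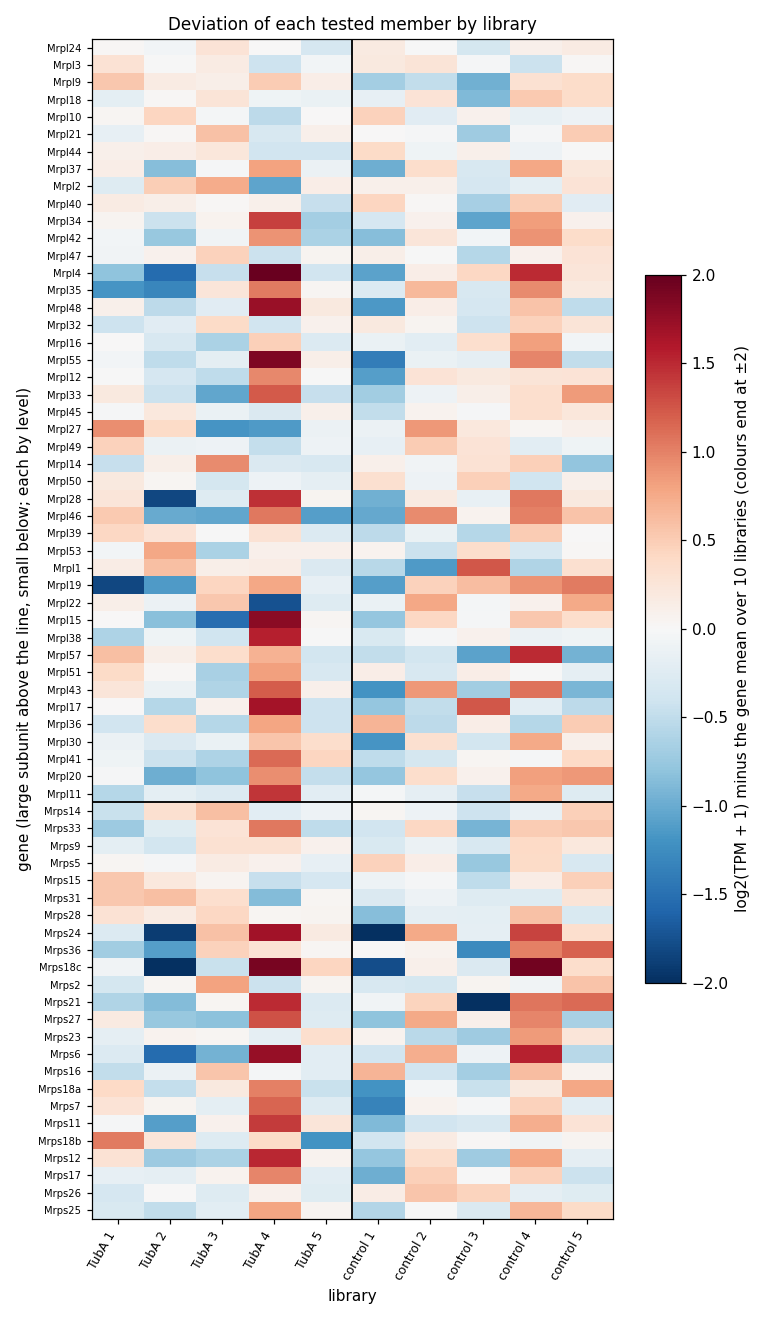
Heat map of log2(TPM + 1) minus the gene's mean over 10 libraries for the 68 members tested; columns are TubA libraries 1 to 5, then control libraries 1 to 5, and rows are genes by subunit and level (red above the mean, blue below). The column of TubA replicate 4 is red for many rare members of both subunits, and it is the highest library of 30 members.

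The rest of the mitochondrial translation machinery held no tested gene that passed. Of 5 mitochondrial ribosomal proteins that go by other names all were tested, 0 passed an adjusted p of 0.05 in limma in either direction, 0 had an unadjusted p under 0.05, and the median difference was 0.095. Dap3, a GTP-binding small-subunit protein, was the most abundant, with 98.7 ± 24.1 TPM in TubA libraries and 91.7 ± 18.8 TPM in control libraries. Of 15 translation factors 11 were tested and 0 passed, with a median difference of 0.0048, and Oxa1l, the inner-membrane insertase that binds the ribosome, alone had an unadjusted p under 0.05 (4.14 ± 0.855 TPM in TubA libraries and 2.39 ± 1.02 TPM in control libraries, adjusted p = 0.9999). The most abundant of them was Gfm1, the elongation factor that moves the ribosome along its message, with 269.6 ± 30.97 TPM in TubA libraries and 265 ± 46.4 TPM in control libraries.

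Of 28 genes for assembly of the mitochondrial ribosome and modification of its RNA 21 were tested and 0 passed, at an unadjusted p under 0.05 also 0, with a median difference of 0.047. Mterf3, which acts in mitochondrial transcription and ribosome assembly, led with 111 ± 8.56 TPM in TubA libraries and 113 ± 10.7 TPM in control libraries. Of 22 genes that charge mitochondrial tRNAs 13 were tested and 0 passed, at an unadjusted p under 0.05 also 0, with a median difference of 0.093. Fars2, the phenylalanyl-tRNA synthetase, led with 249.7 ± 40.7 TPM in TubA libraries and 257 ± 53.6 TPM in control libraries. In these 4 lists 0 genes had TubA values wholly above or below the control values. Of the 76 cytosolic ribosomal protein genes tested 1 did, Rps2, with TubA lower (adjusted p = 0.9999 in limma). It averaged 0.885 ± 0.340 TPM in TubA libraries and 117 ± 115 TPM in control libraries. Of the 74 nuclear genes of the respiratory chain and ATP synthase 0 did, and the 4 such mitochondrial messages are named above. Among the charging genes 9 of 22 averaged under 1 TPM, and among the assembly genes 12 of 28 averaged at least 10 TPM.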

How the data were processed

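The 10 libraries were grouped by their titles. The members and gene lists were chosen with earlier results of these data known. The deposited values are TPM by Ensembl transcript, a unit read from their sum of 1000000 in every library. Per the submitters' processing notes, Bowtie 0.12.2 and mm10 were used. Neither the program behind the TPM nor strandedness is stated, and both are thus not given in the sources used here. TPM keeps no depth, so the spread between libraries gives the precision. No pair of files held identical values.

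Transcripts were summed to genes with GENCODE M21 (GRCm38, the same assembly as mm10). Of these 113492 matched and 1778, with 0.531% to 0.753% of each library's TPM, did not and were left out. Coordinates, transcript types and sequences come from that annotation. TubA was set against control in R 4.3.3 with limma 3.58.1, on log2(TPM + 1), pseudocount 1, with an intensity trend and robust moderation, for 11664 genes averaging 1 TPM or more, with Benjamini-Hochberg adjustment over all of them at 0.05. The fit was also run on simulated data with independent normal values for each gene, which lack the skew and the joint variation described here. Python 3.11.15 computed sums and shares (numpy 2.4.6, pandas 2.3.3) and drew the figures (matplotlib 3.10.9). A median over a list is a description, and no test was run on a list.

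Members were named by rule: the 5 highest and 3 lowest of each subunit by mean, the 4 largest increases and decreases, any member with an unadjusted p under 0.05 or without overlap, and 15 chosen for their role. Mrpl4, Mrpl21, Mrpl35, Mrps6, Mrps28, Mrps31, C1qb, Pecam1, Cd68, Hba-a1 and Oxa1l were named after their values were seen. So were the oocyte markers besides H1foo, those named for transcripts or shared words, and the 10 left out of the test. Shared sequence was counted in words of 31 bases. The alternatives were other pseudocounts, filters and scaling, library weights, the replicate number as a block, the library set, and protein-coding transcripts alone. The library set was found from these values by complete linkage of correlations. Further alternatives were leaving out each library, and adding the whole level of any gene that holds at least 20% of a member's words. Added after seeing the data were subunits by structure, sums without the 5 most abundant of each subunit, and leaving out both replicates 4.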

Additional observations from a re-analysis of the deposited data

Results flagged for a closer look

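For the named members and for the subunit sums and their ratio, the highest and the lowest library of each group of 5 was compared with its nearest neighbour, as a gap divided by the range of the group (Dixon's 95% critical value 0.71). Of 78 groups examined 12 held a library that stood apart, where chance gives about 1 in 20 for independent groups of normal values. These TPM are skewed, the genes share libraries and some were named for a large difference, so the number cannot be read against that share. In 6 of the 12 the library was TubA replicate 4.

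In TubA replicate 4, Mrpl11 had 4.39 TPM, against 0.353 to 0.739 TPM in the other TubA libraries. In that library Mrpl12 had 17.8 TPM, against 5.80 to 8.66 TPM, and Mrpl48 had 42.4 TPM, against 8.12 to 14.1 TPM. Mrpl55 had 30.9 TPM there, against 5.20 to 8.49 TPM. Mrps12 had 14.3 TPM, against 5.56 TPM at most, and Mrps7 24.7 TPM, against 8.62 to 12.9 TPM. These 6 genes belong to both subunits, and none of their differences between TubA and control passed the test.

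In control replicate 4, Mrpl11 had 2.36 TPM, against 0.457 to 0.944 TPM in the other control libraries, Mrpl57 had 9.57 TPM, against 0.791 to 1.93 TPM, and Mrps18c had 52.9 TPM, against 3.15 to 17.1 TPM. In control replicate 1, Mrpl12 was low at 3.53 TPM, against 10.1 to 10.8 TPM, and Mrps22 was low at 0.488 TPM, against 0.736 to 0.834 TPM. In control replicate 2, Mrpl23 had 0.795 TPM, against 0.0427 TPM at most. The cause of these values was not tested.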

How the results depend on the processing

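The number of members past an adjusted p of 0.05 in limma was 0 under every alternative run and with each library left out in turn. Of all genes tested, 1 passed, against 0 among genes averaging 5 TPM or more, 0 with the replicate block, 0 with protein-coding transcripts alone, 0 in the set of TubA 3 to 5 and control 4 and 5, and 12 in the set of TubA 1 and 2 and control 1 to 3. The cause was not tested. With each library left out in turn it stayed at 1. In the set of TubA 3 to 5 and control 4 and 5 the differences of Mrpl9 (-0.079) and Mrpl57 (-0.047) reversed. Mrpl9 ranged from -0.079 to 1.06 over the alternatives, with an unadjusted p of 0.0082 to 0.73 and an adjusted p of 0.69 to 1.0 in limma. The members' median difference ranged from -0.13 to 0.086, that of the large subunit from -0.13 to 0.065 and that of the small subunit from -0.15 to 0.15, so their direction changed with the setting. With protein-coding transcripts alone the large sum was 1096 TPM in TubA libraries and 1051 TPM in control libraries, and the small sum 426 TPM in TubA libraries. Without the 5 most abundant genes of each subunit the large sum was 569 TPM in TubA and 570.2 TPM in control libraries and the small sum 279 TPM in TubA and 270.4 TPM in control libraries, by construction. The ratio of large to small stayed between 2.12 and 2.84 in TubA libraries and between 2.13 and 2.73 in control libraries.

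Groups share replicate numbers, so each library's deviations from its own group mean were correlated between same-numbered libraries. These correlations were 0.00308, -0.00484, -0.308, 0.476 and 0.258, so the numbers are not taken as pairs. By these deviations 2 of 5 TubA libraries correlated best with the control of their own number. The libraries themselves, without this subtraction, correlated at 0.861 to 0.961. The replicate block gave 0 members past the threshold. Low members are limited by the spread: of those of 1 to 20 TPM, 23 of 47 had an interval inside a 2-fold change.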
